A study of Mus musculus with 28 samples.

Results

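The response to amyloid was set side by side in microglia and in astrocytes of the same mouse brains, and each gene was tested for a difference between the 2 responses. The comparison used 26 of the 28 libraries of the series, a microglia and an astrocyte library from each of 9 mice with the APPPS1 transgenes and from each of 4 amyloid-free mice. APPPS1 mice express their transgenes under a neuronal promoter and deposit amyloid plaques. Of the 9 APPPS1 mice, 4 were APPPS1::APOE4fl/fl::ALDH1L1-CreERT (Cre-positive: mice 443, 458, 460 and 475) and 5 were APPPS1::APOE4fl/fl (Cre-negative: mice 439, 447, 469, 774 and 779). The amyloid-free mice were 2 APOE4fl/fl::ALDH1L1-CreERT animals (Cre-positive: mice 22 and 26) and 2 APOE4fl/fl animals (Cre-negative: mice 465 and 759). Every mouse, controls included, therefore carried floxed human APOE4 and received tamoxifen at 3.8 months, in 2 intraperitoneal doses of 100 mg/kg, and cells were sorted 10 days later from cortex, hippocampus and thalamus. The Aldh1l1-driven CreERT removes APOE4 from astrocytes after tamoxifen, so the Cre states were given equal weight in every effect below. Microglia were sorted with an antibody to Cd11b and astrocytes with one to ACSA-2, and RNA was sequenced in bulk.

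Microglia are the resident macrophages of the brain. Around amyloid plaques they are known to leave their resting state and take up a disease-associated programme of lysosomal, lipid-handling and phagocytic genes, much of it through the receptor TREM2. Astrocytes clear glutamate and potassium, supply lipids and metabolites to neurons, and near plaques become reactive, with Gfap, an intermediate filament gene, as the usual sign. Both cell types respond to the same deposits, and comparing them in the same animals shows which parts of the response belong to one cell type and which are held in common.

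Total counts ran from 26162612 to 59238523 per library, and rows of human genes took 0.04201 to 0.2373% of them. Summed over 15 microglia identity genes such as P2ry12 and Cx3cr1, microglia libraries held 50194 to 61914 CPM (counts scaled to a common library size, per 1e6 mouse counts) in APPPS1 mice and 22166 to 59426 CPM in amyloid-free mice, where mouse 26 had the 22166 CPM. In astrocyte libraries the same genes summed to 88.1 to 164.6 CPM in APPPS1 mice and 90.1 to 136.3 CPM in amyloid-free mice. With counts summed over the libraries of an amyloid group, no marker of either list was at 0 in its own sort. Both libraries of a further APPPS1 Cre-positive animal, mouse 459, held the genes of the other sort. The one labelled microglia had 152.3 CPM over the microglia identity genes and 45706 CPM over 16 astrocyte identity genes, and the one labelled astrocyte had 43605 and 274.5 CPM, so this mouse was left out. Xist, expressed from the inactive X chromosome of females, stood at 99.9 to 355.5 CPM in every library, and 4 Y-linked genes reached at most 0.367 CPM.

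The amyloid effect in a sort is the log2 ratio of APPPS1 to amyloid-free libraries, and the difference between sorts is the effect in microglia minus the effect in astrocytes, with its own test in the same model of 21612 genes (edgeR, adjusted p under 0.05; errors of log2 values are standard errors). The difference was called for 325 genes (1.5% of those tested), 167 with a higher effect in microglia (0.773%) and 158 with a lower one (0.731%). In microglia alone 1158 genes were higher (5.36%) and 885 lower (4.09%) in APPPS1 mice, whereas in astrocytes 13 were higher (0.0602%) and none lower (0%), although 1077 and 332 had an unadjusted p under 0.05, and DESeq2 called 227 higher and 13 lower and voom 31 and 12. A call in microglia without one in astrocytes was by itself no sign of a difference, since 1746 of the 2043 genes called in microglia did not pass the test of the difference. The remaining 297 changed in microglia, by a different amount from astrocytes, without a call in astrocytes. Only 5 genes did the reverse, 3 were called in both sorts in the same direction, and none was called in both in opposite directions by edgeR, against 11 by DESeq2 and 2 by voom. With each sort fitted alone, the median standard error of genes measured in both was 0.17 in microglia and 0.16 in astrocytes.

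These counts moved with single mice and with the model. The call for the difference was left at 41 genes with the mouse as a block, 40 of them among the 325, at 80 when Cre terms were added to that block, and at 176 with the mouse as a random effect. Leaving out mouse 26 took it to 52 genes, mouse 759 to 87, mouse 465 to 175, mouse 475 to 199, mouse 458 to 211 and mouse 469 to 577. It was 4 with the level of the other sort's identity genes as a covariate, 3 of them among the 325, and only 2 of those 3 in the same direction.

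**Figure D1:**
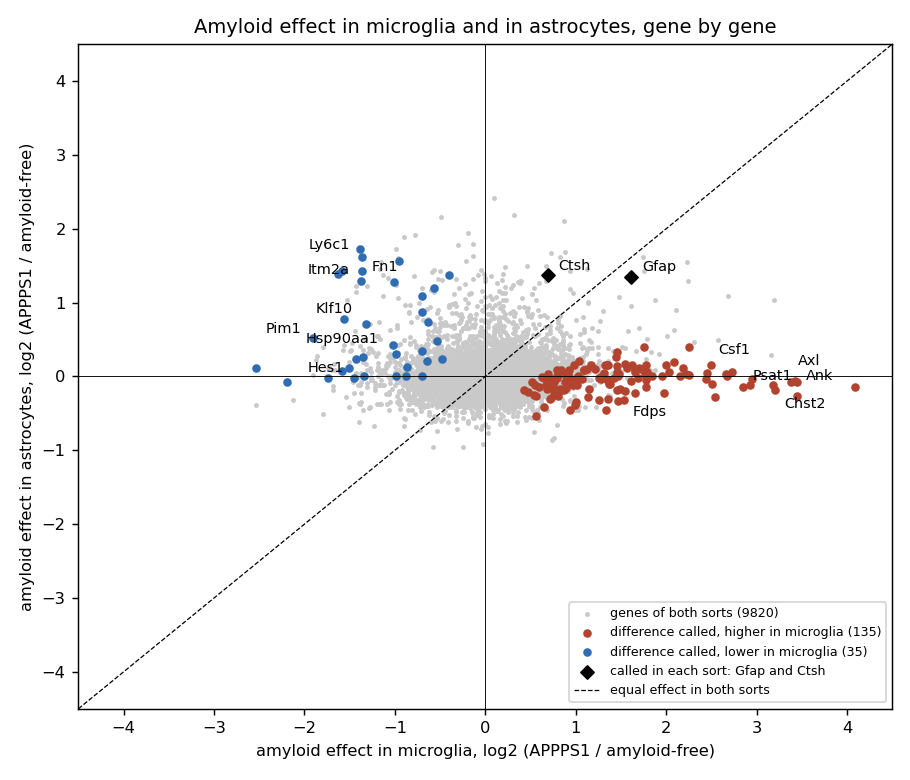
Amyloid effect in microglia (horizontal axis, log2 of APPPS1 over amyloid-free) against that in astrocytes (vertical axis, same unit), 1 point for each of the 9820 genes measured in both sorts, with 5 beyond the axes. The 135 genes with a called higher effect in microglia (red) lie along the horizontal line of no astrocyte effect. Most of the 35 with a lower effect (blue) lie at the upper left. Gfap and Ctsh (diamonds) lie above 0 on both axes, but Gfap is not among the genes measured in both sorts, being too low in microglia.

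Genes that rose in microglia with astrocytes at no measured effect were the largest clear class. A gene counted as measured in a sort where its mean was at least 1 log2 CPM over the 13 libraries of that sort, and 9820 genes met this in both sorts. Of these 170 were called for the difference (1.73%), and 134 of them rose in microglia alone. Their median effect was 1.35 in microglia and -0.04 in astrocytes, and the astrocyte estimate lay within 0.25 of 0 for 111 and within 0.5 for 133 of the 134. Most of the 9820 genes had an astrocyte effect between -0.22 and 0.25, so estimates this near 0 were usual. The rule of the class also left out genes called in astrocytes. The 134 genes were not silent in astrocytes: 64 of them had the higher mean level there. In bulk libraries more cells with a gene's RNA and more of it per cell cannot be told apart.

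Axl, a receptor tyrosine kinase (chromosome 7, 25757273 to 25788705 in GRCm38), had the lowest p of these genes. In microglia it ran from 73.7 to 406 CPM with a median of 191.3 in the 9 APPPS1 mice, against 21.5, 15.9, 26.3 and 12.7 CPM in amyloid-free mice 22, 26, 465 and 759. In astrocytes it ran from 105.5 to 142.4 CPM, median 127.4, in APPPS1 mice, against 138.2, 149.6, 118.9 and 122.3 CPM in the same 4 mice. Every APPPS1 microglia library lay above every amyloid-free one, while the astrocyte libraries overlapped. The effect was 3.42 in microglia and -0.06 in astrocytes, a difference of 3.48 ± 0.44 (adjusted p = 0.000605). Within a mouse, microglia over astrocytes ran from -0.69 to 1.54 log2 in APPPS1 mice and from -3.27 to -2.18 in amyloid-free mice, so amyloid-free microglia held far less Axl than the astrocytes beside them and most APPPS1 microglia held more.

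Chst2, Psat1 and Ank showed the same shape, the first pair at higher astrocyte levels. Chst2, a sulfotransferase that modifies sugar chains (chromosome 9, 95399292 to 95406722), had 32.6 to 199.5 CPM, median 115.4, in APPPS1 microglia against 16, 12.8, 15.1 and 11.3 CPM in amyloid-free microglia, and 357 to 800.8 CPM, median 657.7, in APPPS1 astrocytes against 663.7, 732.7, 649 and 620.6 CPM in amyloid-free ones. The difference was 3.39 ± 0.44 (adjusted p = 0.000656). Psat1, an enzyme of serine synthesis (chromosome 19, 15904678 to 15947337), had 56.1 to 313.1 CPM, median 187.1, in APPPS1 microglia against 29.8, 14.9, 30.9 and 29.6 CPM in amyloid-free microglia. Its astrocyte level was 355.9 to 534.1 CPM, median 425.7, in APPPS1 mice against 430.8, 435.2, 499.6 and 552.5 CPM. Microglia of all 9 APPPS1 mice were above the amyloid-free ones for both genes, yet none reached the lowest astrocyte library. The difference for Psat1 was 3.01 ± 0.40 (adjusted p = 0.000656). Ank, a transporter that exports pyrophosphate and ATP, rose by 3.38 in microglia and stood at -0.08 in astrocytes (difference 3.46 ± 0.47, adjusted p = 0.000656).

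Csf1, the growth factor that microglia need through the receptor Csf1r, rose in microglia themselves. It had 166.9 to 452.4 CPM, median 245.9, in APPPS1 microglia against 57.5, 38.2, 52.6 and 48.4 CPM in amyloid-free microglia, and 42.2 to 78.4 CPM, median 49.5, in APPPS1 astrocytes against 46.7, 58.5, 38.3 and 47.2 CPM in amyloid-free ones. The sorts had like levels without amyloid, and in APPPS1 mice every microglia library was above every astrocyte library (difference 2.32 ± 0.33, adjusted p = 0.00128). Plpp1, a lipid phosphatase of the plasma membrane, followed with a difference of 1.47 ± 0.22 (adjusted p = 0.0018). These 6 genes kept their call with the mouse as a block, at adjusted p of 0.00301 for Axl, 0.00888 for Chst2, 0.00732 for Psat1, 0.00378 for Ank, 0.00301 for Csf1 and 0.0125 for Plpp1. Tnfsf8, a TNF family ligand, and Cox6a2, a subunit of cytochrome oxidase, were the genes measured in microglia alone that rose there with a called difference and met the naming rule. Tnfsf8 had 7.63 to 37.2 CPM in APPPS1 microglia against 3.79, 1.63, 1.09 and 1.18 CPM, and Cox6a2 19.4 to 188.8 CPM against 7.13, 4.54, 9.6 and 10.7 CPM, with both at or under 0.378 CPM in every astrocyte library, so the size of their difference is not read here. Neither kept its call with the mouse as a block (adjusted p = 0.205 for Tnfsf8 and 0.18 for Cox6a2) or in the other block fits. Of these 8 genes, none kept its call with the other sort's identity genes as a covariate, where Axl stood at 2.31 (adjusted p = 0.148).

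**Figure D2:**
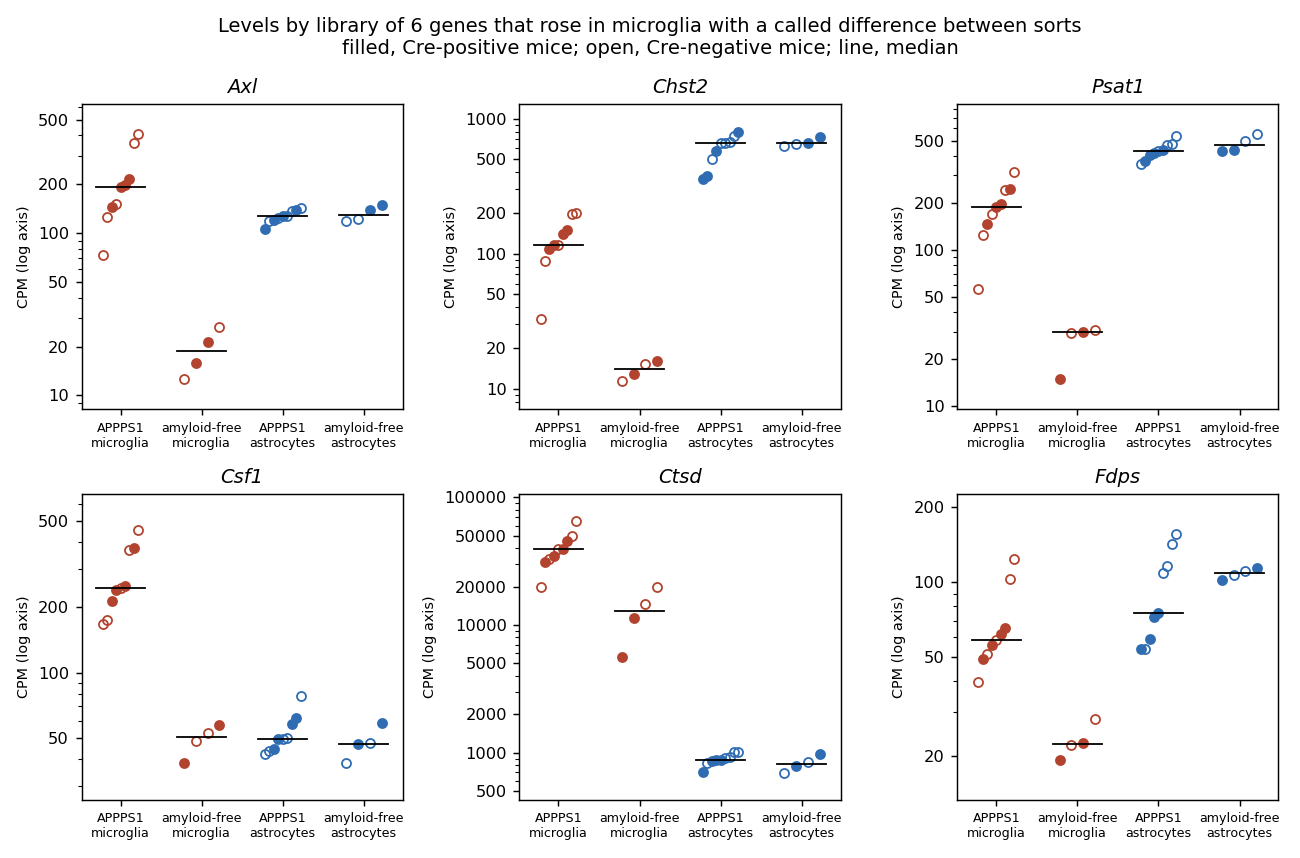
CPM on a log axis for 6 genes in each library, with APPPS1 and amyloid-free microglia (red) and APPPS1 and amyloid-free astrocytes (blue) from left to right, Cre-positive mice filled, Cre-negative mice open and the median as a line. Every APPPS1 microglia point lies above every amyloid-free one in each panel, while the astrocyte groups overlap.

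Genes of the known programme of plaque-associated microglia rose in microglia. Of 24 late disease-associated genes tested, 12 were called for a higher effect in microglia and none for a lower one. The share called higher over all genes tested was 0.773%. The 24 had a median effect of 2.22 in microglia and 0.16 in astrocytes, beside -0.01 and 0.04 over all genes tested. Gpnmb, a glycoprotein of lysosomes, had 11.2 to 217.7 CPM, median 118.9, in APPPS1 microglia against 0.289, 1.4, 2.7 and 0.421 CPM in amyloid-free ones, and 0.142 to 6.59 CPM, median 3.86, in APPPS1 astrocytes against 4.83, 2.93, 4.61 and 6.22 CPM (difference 6.92 ± 1.06, adjusted p = 0.00205). Thus Gpnmb was the lower of the pair in amyloid-free microglia and the higher in APPPS1 microglia. Spp1, the secreted protein osteopontin, differed by 3.73 ± 0.73 (adjusted p = 0.01) and Fabp5, a fatty acid carrier, by 2.66 ± 0.54 (adjusted p = 0.013). Of the 12, 5 kept their call with the mouse as a block. Gpnmb was 1 of them (adjusted p = 0.0239), but Spp1 (adjusted p = 0.311) and Fabp5 (adjusted p = 0.109) were not. Neither Spp1 nor Fabp5 was called in the other block fits. For Cst7, an inhibitor of cathepsins and a leading gene of this programme, no difference could be read. It had 293.5 to 3301 CPM in APPPS1 microglia against 13.7, 13.9, 12.2 and 9.85 CPM in amyloid-free ones, but at most 1.64 CPM in any astrocyte library. Of 20 homeostatic microglia genes none was called for the difference, beside 1.5% of all genes tested, so a list of this size would often hold none. The median effects were 0.10 in microglia and -0.04 in astrocytes.

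Lysosomal genes rose in microglia with little measured effect in astrocytes. Of 32 tested, 22 rose in microglia, 1 in astrocytes (Ctsh, described below), and 11 were called for the difference, all higher in microglia, with medians of 0.87 in microglia and 0.10 in astrocytes. Over all genes tested the shares with these 3 calls were 5.36%, 0.0602% and 0.773%. Ctsd, a lysosomal aspartic protease, had 19868 to 65129 CPM, median 39377, in APPPS1 microglia against 11412, 5579, 19761 and 14534 CPM in amyloid-free microglia, and 700.6 to 1015 CPM, median 883.8, in APPPS1 astrocytes against 789.4, 975.2, 838.7 and 698.5 CPM (difference 1.61 ± 0.31, adjusted p = 0.0098). The lowest APPPS1 microglia library was just above the highest amyloid-free one. Glb1, the lysosomal beta-galactosidase, differed by 1.58 ± 0.29 (adjusted p = 0.00654), Ctsz, a cathepsin, by 1.46 ± 0.28 (adjusted p = 0.00961), Hexa, a hexosaminidase subunit, by 1.45 ± 0.28 (adjusted p = 0.00926), and Ctsb, another cathepsin, by 1.40 ± 0.27 (adjusted p = 0.00961). Of the 11, none kept its call with the mouse as a fixed block, 2 did with Cre terms added and 7 with the mouse as a random effect. The differences themselves were little moved, with Ctsd at 1.58 (adjusted p = 0.112) and Glb1 at 1.57 (adjusted p = 0.0781) under the fixed block.

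The promoters of these lysosomal genes are shown because many such genes carry the letters CACGTG, the core of the element that the lysosomal regulator TFEB is known to bind. The letters are a palindrome, read alike on both strands. Of the 11 lysosomal genes called, 10 had a promoter in RefSeq (250 bases before to 50 after a start of the gene, GRCm38.p6), and 4 of these held CACGTG. A gene with several promoters counted as holding the letters if any of them did, so genes with more starts had more chances. Only a promoter with the letters is shown for each gene. Of the other 21 members, 14 had a promoter and 5 held it, beside 19 of the 109 with a promoter among the 134 rising genes. Of the genes tested, 13830 had a promoter and 1466 of these (10.6%) held it, and so did 8.09% of the 27025 genes in the table. The share was thus much alike in called and other lysosomal genes. The 4 promoters follow, 5′ to 3′ on the gene's strand, with CACGTG in capitals.
Glb1, chr9:114400828-114401127, plus strand: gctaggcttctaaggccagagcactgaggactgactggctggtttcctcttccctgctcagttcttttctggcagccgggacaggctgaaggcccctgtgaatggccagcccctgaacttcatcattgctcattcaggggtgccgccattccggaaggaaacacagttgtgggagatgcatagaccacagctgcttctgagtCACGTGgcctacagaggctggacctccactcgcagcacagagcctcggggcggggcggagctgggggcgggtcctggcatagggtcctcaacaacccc
Ctsd, chr7:142387778-142388077, minus strand: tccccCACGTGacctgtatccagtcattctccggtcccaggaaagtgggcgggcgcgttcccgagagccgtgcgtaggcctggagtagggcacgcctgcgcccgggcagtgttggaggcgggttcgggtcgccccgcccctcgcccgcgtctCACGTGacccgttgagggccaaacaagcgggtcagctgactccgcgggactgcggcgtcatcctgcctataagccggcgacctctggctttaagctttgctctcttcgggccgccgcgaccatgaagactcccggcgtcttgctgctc
Ctsl, chr13:64370471-64370770, minus strand: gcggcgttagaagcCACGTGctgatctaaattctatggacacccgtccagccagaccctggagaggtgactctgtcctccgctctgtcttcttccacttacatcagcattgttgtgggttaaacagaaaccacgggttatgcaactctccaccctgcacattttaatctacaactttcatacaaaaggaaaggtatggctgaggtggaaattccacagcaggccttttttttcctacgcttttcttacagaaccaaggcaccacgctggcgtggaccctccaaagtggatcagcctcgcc
Ctsa, chr2:164833523-164833822, plus strand: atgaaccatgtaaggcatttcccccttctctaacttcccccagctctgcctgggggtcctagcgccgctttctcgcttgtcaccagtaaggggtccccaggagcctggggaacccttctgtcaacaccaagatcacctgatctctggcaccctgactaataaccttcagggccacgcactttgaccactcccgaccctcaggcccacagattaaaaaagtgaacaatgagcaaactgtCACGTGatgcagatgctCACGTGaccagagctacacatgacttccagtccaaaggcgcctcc
In the promoter shown, Ctsd and Ctsa each held the letters at 2 places, and Glb1 and Ctsl at 1. Ctsl, a cysteine cathepsin, differed by 1.19 ± 0.26 (adjusted p = 0.0204) and Ctsa, a protective carboxypeptidase, by 1.01 ± 0.25 (adjusted p = 0.0455).

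Cholesterol synthesis genes leaned upward in microglia and downward in astrocytes. All 25 genes tested had a higher effect in microglia than in astrocytes, 6 of them called, beside 9643 of all 21612 genes with a positive difference. A higher effect in microglia was called for 0.773% of all genes tested, and 5.36% rose in microglia. In microglia 12 rose and 23 estimates were above 0. In astrocytes none was called, 2 estimates were above 0 and the median was -0.32, with 2 genes lower at an unadjusted p under 0.05. Fdps, which makes farnesyl pyrophosphate, had 39.5 to 123.7 CPM, median 58.4, in APPPS1 microglia against 22.6, 19.2, 28 and 22 CPM in amyloid-free ones, and 53.6 to 156.8 CPM, median 75.1, in APPPS1 astrocytes against 114.4, 101.7, 110.8 and 106.4 CPM. All APPPS1 microglia libraries were above the amyloid-free ones, and the astrocyte libraries overlapped (effects 1.53 and -0.32; difference 1.85 ± 0.36, adjusted p = 0.0098; 0.0516 with the mouse as a block). Hsd17b7 (1.79 ± 0.40, adjusted p = 0.0235), Cyp51 (1.66 ± 0.40, adjusted p = 0.0376) and Sc5d (1.34 ± 0.33, adjusted p = 0.0382), which act in the later steps of the pathway, differed likewise. Of the 6 called, none kept its call with the mouse as a block, and 1 did with Cre terms added and 1 with the mouse as a random effect; Hsd17b7, Cyp51 and Sc5d stood at adjusted p of 0.181, 0.112 and 0.104 with the block. The astrocyte side of the lean was seen in Cre-positive mice, where 1 of 25 estimates was above 0 with a median of -0.71, against 16 of 25 and a median of 0.04 in Cre-negative mice. The microglia medians were 0.63 in Cre-positive and 0.90 in Cre-negative mice.

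Glycolysis and hypoxia genes rose in microglia. Of 23 tested, 13 rose and 1 fell in microglia, none was called in astrocytes, and 8 were called for a higher effect in microglia (median effects 0.73 in microglia and -0.08 in astrocytes). Over all genes tested, 5.36% rose and 4.09% fell in microglia, and 0.773% were called for a higher effect there. With 0.0602% called in astrocytes, a list of this size would mostly hold none. Gapdh had 644.3 to 1744 CPM, median 1114, in APPPS1 microglia against 404.1, 486.6, 536.9 and 479.4 CPM in amyloid-free microglia, and 892.3 to 1585 CPM, median 1258, in APPPS1 astrocytes against 1197, 1235, 1209 and 1193 CPM in amyloid-free ones. The rise in microglia brought their median close to that of astrocytes (difference 1.27 ± 0.27, adjusted p = 0.0182). Hif1a, the oxygen-regulated transcription factor, differed by 1.48 ± 0.32 (adjusted p = 0.0196), and was the 1 member of the list called with the mouse as a block (adjusted p = 0.0253). Of 24 oxidative phosphorylation genes, 8 rose in microglia and none in astrocytes (median effects 0.37 and 0.00), but none was called for the difference. With 1.5% of all genes tested called for the difference, none of 24 is usual.

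Some genes with a known place in amyloid biology were among those that rose in microglia alone. Aplp2, a relative of APP, differed by 1.68 ± 0.33 (adjusted p = 0.0101), and Itm2b, a membrane protein that binds APP, by 0.66 ± 0.17 (adjusted p = 0.0433). They were the 2 called of 20 genes of amyloid processing and clearance, whose median effects were 0.17 in microglia and 0.02 in astrocytes. With the mouse as a fixed block neither Aplp2 (adjusted p = 0.0728) nor Itm2b (adjusted p = 0.205) kept its call, nor with Cre terms added. Both kept it with the mouse as a random effect. Among all genes tested, 0.773% were called for a higher effect in microglia. Rows of mouse Apoe had 51.9 to 404.2 CPM, median 215.8, in APPPS1 microglia against 38.9, 56.3, 32.6 and 46.9 CPM in amyloid-free ones, and 257.7 to 389.4 CPM, median 340.5, in APPPS1 astrocytes against 275.9, 305.9, 370.7 and 256.5 CPM (difference 2.07 ± 0.48, adjusted p = 0.0283; 0.233 with the mouse as a block). These mice carry human APOE4, and how the authors assigned reads that fit both genomes is not stated in the sources used.

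**Figure D3:**
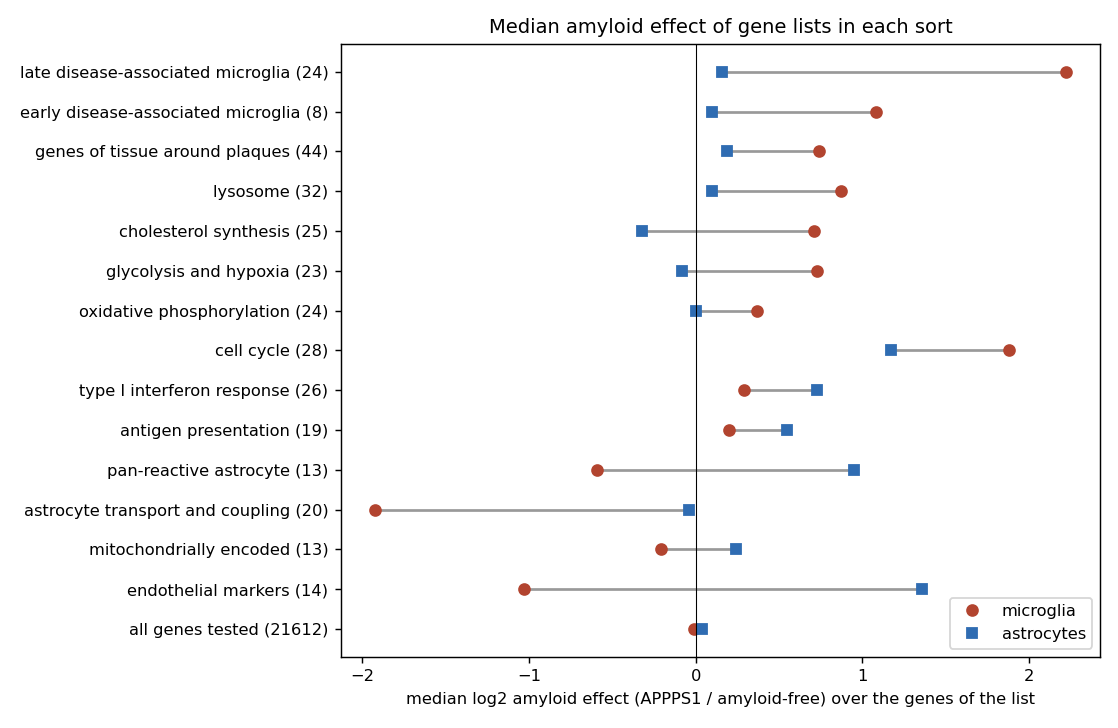
Median log2 amyloid effect in microglia (red circles) and in astrocytes (blue squares) over the genes of each list, with the number of genes tested in brackets. The microglial programmes at the top have a high median in microglia and an astrocyte median near 0, while interferon, antigen presentation, reactive astrocyte and endothelial genes have the higher median in astrocytes.

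Genes that fell in microglia with a called difference numbered 133, and 27 of them were measured in both sorts, with median effects of -1.36 in microglia and 0.24 in astrocytes. Hes1, a transcriptional repressor downstream of Notch (chromosome 16, 30064384 to 30067796), had 13.1 to 23.6 CPM, median 18.8, in APPPS1 microglia against 51.1, 86.5, 28.8 and 46.9 CPM in amyloid-free ones. Its astrocyte level was 29.6 to 59.9 CPM, median 41.3, in APPPS1 mice against 43.4, 37.9, 43.1 and 44.5 CPM. The microglia groups did not overlap and the astrocyte groups did (difference -1.43 ± 0.25, adjusted p = 0.00442; 0.0927 with the mouse as a block and 0.0495 with Cre terms added). Upf2, a factor of nonsense-mediated RNA decay, differed by -0.86 ± 0.17 (adjusted p = 0.0101; 0.136 with the block). Pim1, a kinase induced by cytokines, had 84 to 314.8 CPM, median 178.6, in APPPS1 microglia against 594.6, 1739, 487.9 and 339.7 CPM (difference -2.43 ± 0.51, adjusted p = 0.015; 0.147 with the block). Klf10, a transcription factor induced by TGF-beta, differed by -2.03 ± 0.44 (adjusted p = 0.0182) and kept its call with the block (adjusted p = 0.0381). Hsp90aa1, an inducible chaperone, differed by -1.29 ± 0.26 (adjusted p = 0.0131; 0.35 with the block), and its microglia groups overlapped. Cebpb, a myeloid transcription factor measured in microglia alone, had 18.1 to 56 CPM in APPPS1 microglia against 79.3, 378.8, 56.3 and 59.9 CPM, and at most 3.14 CPM in any astrocyte library (difference -2.75 ± 0.65, adjusted p = 0.031, and 0.311 with the block). The difference for Cebpb ran from -4.58 to -1.82 over the settings, and its size is not read here. Markers of monocytes and neutrophils, other myeloid cells that carry Cd11b, summed over 14 genes to 322.3 to 8615 CPM (median 889.1) in APPPS1 microglia and 1772 to 7921 CPM (median 3626) in amyloid-free microglia. No marker was at 0 over all microglia libraries of either group. Of these 14, 2 fell in microglia, beside 4.09% of all genes tested, and none was called for the difference, beside 1.5%. The part of these markers in the falls of myeloid genes was not tested.

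The other genes that fell in microglia were mostly genes of other cells. Of the 133, 100 were measured in astrocytes alone, and 110 had a mean level at least 3 log2 units higher in astrocytes. Of 16 astrocyte identity genes, 11 fell and 2 rose in microglia libraries, and 7 were called for a lower and 1 for a higher effect in microglia, with medians of -2.44 in microglia and -0.02 in astrocytes. Among all genes tested, 4.09% fell and 5.36% rose in microglia, and 0.731% were called for a lower and 0.773% for a higher effect. Of the 8 calls for the difference in this list none held with the mouse as a fixed block, and 5 held with the mouse as a random effect. The median difference over the 16 was -3.96 in Cre-positive mice and -0.86 in Cre-negative mice. Slc1a2, the main glutamate transporter of astrocytes, had 1.46 to 4.69 CPM, median 2.19, in APPPS1 microglia against 23.9, 22.4, 2.95 and 9.32 CPM in amyloid-free ones, beside 3120 to 4572 CPM, median 3994, in APPPS1 astrocytes and 4385, 4326, 4438 and 3515 CPM in amyloid-free astrocytes (difference -2.12 ± 0.40, adjusted p = 0.00839; 0.13 with the block). The astrocyte RNA in microglia libraries, read as the median over astrocyte identity genes of the microglia level over the astrocyte level in the same mouse, was 0.0250 to 0.149% (median 0.0372%) in APPPS1 mice and 0.504, 0.336, 0.0411 and 0.272% in amyloid-free mice 22, 26, 465 and 759. The share was thus higher in 3 of the 4 amyloid-free microglia libraries than in any APPPS1 one. Summed over the same 16 genes, microglia libraries held 311.6 to 398 CPM in APPPS1 mice and 488.8, 316.4, 526.9 and 454.4 CPM in mice 22, 26, 465 and 759. By this sum mouse 26 lay within the APPPS1 range and mouse 465 was the highest. The part of astrocyte RNA in these calls was not tested gene by gene. Read the other way, the share of microglial RNA in astrocyte libraries was 0.0176 to 0.152% in APPPS1 mice and 0.0181 to 0.201% in amyloid-free ones. S1pr1, a lipid receptor of astrocytes, was the identity gene that went the other way, with a difference of 1.06 ± 0.22 (adjusted p = 0.0146).

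Changes led by astrocytes were few. The 5 genes called in astrocytes and for the difference but not in microglia were Pmaip1, Mcub, Rab11fip1, AI467606 and Pik3r6, each measured in microglia only. Pmaip1, a pro-apoptotic BCL2 family gene, had 79.2 to 135.9 CPM, median 83.1, in APPPS1 microglia against 143.3, 412.1, 108.2 and 87.8 CPM in amyloid-free microglia of mice 22, 26, 465 and 759, and 0.852 to 6.11 CPM, median 4.02, in APPPS1 astrocytes against 0, 0, 1.51 and 5.67 CPM in amyloid-free astrocytes. Mcub, a subunit of the mitochondrial calcium uniporter, had 0.434 to 1.72 CPM, median 0.908, in APPPS1 astrocytes against 0, 0, 0 and 0.291 CPM. These calls thus rest on libraries at or near 0 in astrocytes, and the size of a fitted difference there depends on the model's prior count. With the mouse as a fixed block none of the 5 kept its call for the difference (adjusted p of 0.063 to 0.442), and none was called in Cre-negative mice (adjusted p of 0.57 to 1). All 5 names were given because the class is small, after their values were seen. With a sort fitted alone, no gene was called in astrocytes among 20052 tested, where 1409 had an unadjusted p under 0.05.

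A further 5 genes rose in astrocytes without passing in microglia or for the difference: St3gal6, Slc38a1, Pdia5, Rad51ap1 and Igtp. Slc38a1, a neutral amino acid transporter, had 52.9 to 80.7 CPM, median 66.9, in APPPS1 microglia against 54.3, 64.7, 45.1 and 56 CPM in amyloid-free ones, and 16.6 to 61.4 CPM, median 28.8, in APPPS1 astrocytes against 6.99, 6.72, 38.3 and 23.7 CPM. In astrocytes mice 22 and 26 were low and the other 2 amyloid-free mice lay within the APPPS1 range (effect 0.28 in microglia and 1.19 in astrocytes, adjusted p of the difference 0.106). Igtp, an interferon-gamma inducible GTPase, was the 1 of these whose astrocyte groups did not overlap, at 16.2 to 25 CPM, median 20.4, in APPPS1 mice against 11.9, 11.4, 13.8 and 12.9 CPM (effect 0.15 in microglia, adjusted p = 0.518; 0.69 in astrocytes, adjusted p = 0.0324; difference -0.54 ± 0.17, adjusted p = 0.111).

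Gfap and Ctsh were called in both sorts at an adjusted p under 0.05, along with Lockd, a long noncoding RNA with at most 5.99 CPM in any library. By the rule of at least 1 log2 CPM, only Ctsh was measured in both sorts, and Gfap was measured in astrocytes alone. The microglia call of Gfap rests on 0.356 to 3.4 CPM, so a shared response of Gfap is not read from it. Gfap had 1.43 to 3.4 CPM, median 2.44, in APPPS1 microglia against 0.514, 0.698, 0.356 and 1.45 CPM in amyloid-free ones. In astrocytes it had 101.9 to 217 CPM, median 170.6, in APPPS1 mice against 63.3, 60.6, 68.3 and 61.6 CPM in amyloid-free mice, groups that did not overlap. The effect was 1.61 in microglia (adjusted p = 0.00226) and 1.35 in astrocytes (adjusted p = 0.048), a difference of 0.27 ± 0.38 (adjusted p = 0.845). In APPPS1 mice the microglia level was 0.914 to 3.34% of the astrocyte level, which is 8.71 to 98.9 times the share that astrocyte identity genes give in the same libraries. In amyloid-free mice it was 0.522 to 2.35% of the astrocyte level and 1.61 to 12.7 times that share, within 3 times in 1 of 4 mice. Gfap is itself a member of that list, and the share is only the list's median. In APPPS1 mice the median of microglia over astrocytes was -6.26 log2 for Gfap. It was higher for Slc1a3 (-4.85) and S1pr1 (-3.95) and lower for the other members. A member can thus lie well above the share, and where the Gfap RNA in microglia libraries came from was not tested. Ctsh, a lysosomal cysteine protease, had 795.1 to 1605 CPM, median 1313, in APPPS1 microglia against 727.2, 559.5, 1107 and 850.1 CPM, and 14.9 to 40.1 CPM, median 27, in APPPS1 astrocytes against 4.21, 4.08, 17.3 and 34.7 CPM. Its astrocyte level in APPPS1 mice was 1.33 to 3.14% of that in microglia, 13.5 to 166 times the microglial share, and in amyloid-free mice 0.579 to 4.08%, 3.63 to 133 times it. The effect of Ctsh was 0.69 in microglia (adjusted p = 0.0474) and 1.37 in astrocytes (adjusted p = 0.0324), a difference of -0.68 ± 0.30 (adjusted p = 0.265), and in both sorts its groups overlapped. The astrocyte calls for Gfap, Ctsh and Lockd were lost when a sort was fitted alone.

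**Figure D4:**
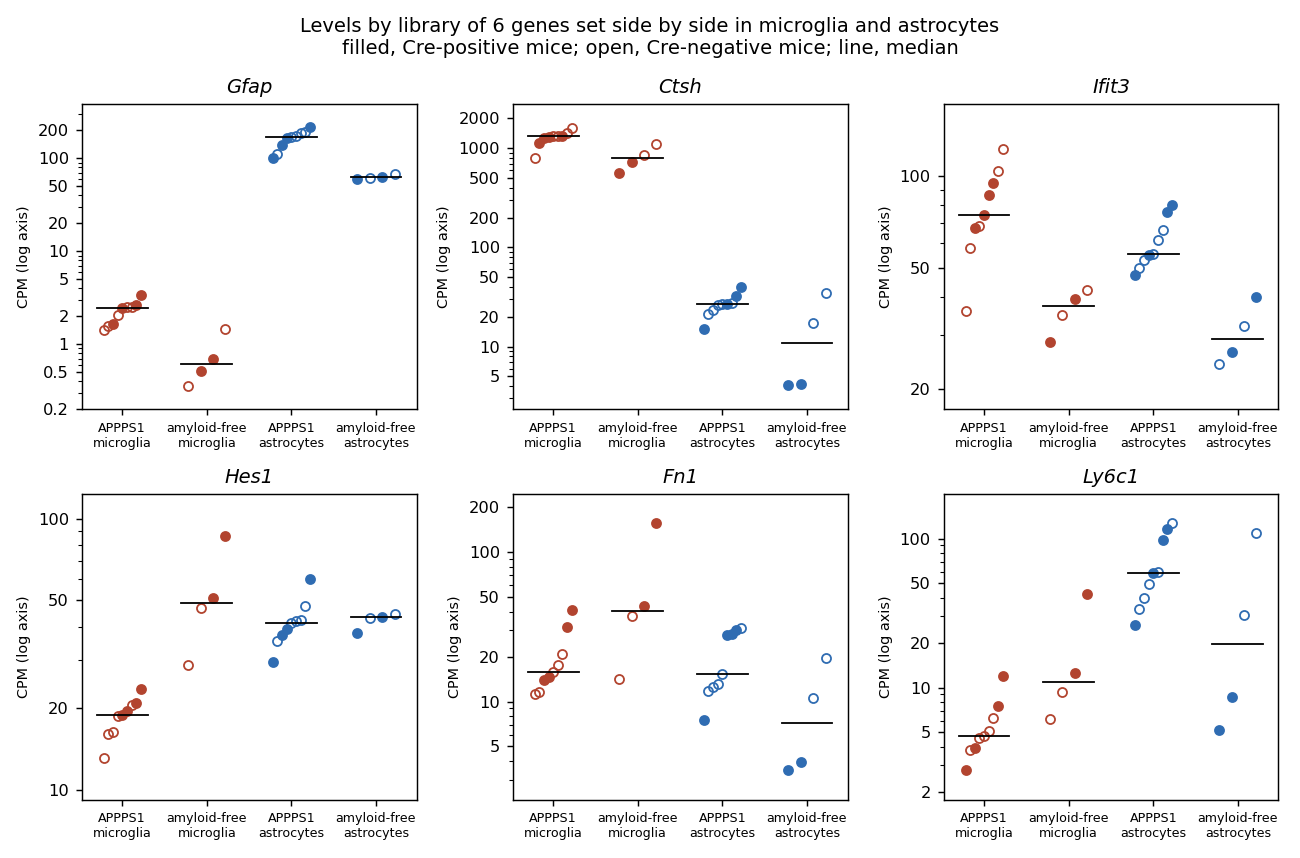
CPM on a log axis in each library for 6 genes, with APPPS1 and amyloid-free microglia (red) and APPPS1 and amyloid-free astrocytes (blue) from left to right, Cre-positive mice filled, Cre-negative mice open and the median as a line. Gfap is higher in APPPS1 mice in both sorts with no overlap in astrocytes, Hes1 is lower in APPPS1 microglia alone, and in Ctsh, Fn1 and Ly6c1 the 2 amyloid-free Cre-positive astrocyte libraries are the lowest.

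No gene fell in both sorts by the edgeR test. The genes nearest to a shared fall were Fam49b, Dpm1 and B4galt6, with effects of -0.57, -0.90 and -0.47 in microglia and -0.53, -0.57 and -0.33 in astrocytes (adjusted p in astrocytes 0.428, 0.519 and 0.571). Those nearest to a fall in astrocytes were Eogt, which adds a sugar to secreted proteins, at -0.71 (adjusted p = 0.0932), the kinase Akt2 at -0.69 (adjusted p = 0.137) and Dusp6, a phosphatase that restrains ERK signalling, at -0.52 (adjusted p = 0.34).

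Interferon genes leaned upward in both sorts. Of 26 type I interferon genes, 25 had an astrocyte effect above 0 and 15 were higher at an unadjusted p under 0.05, with a median of 0.73, but none was called over all genes. At that unadjusted threshold 1077 of all 21612 genes were higher in astrocytes, and 0.0602% were called. In microglia 20 of 26 were above 0, 3 rose, beside 5.36% of all genes tested, and the median was 0.29. None was called for the difference, beside 1.5% of all genes tested, and its median was -0.36. The astrocyte median was 0.92 in Cre-positive mice, with 25 of 26 above 0, and 0.30 in Cre-negative mice, with 19 of 26, and the median difference was -1.01 in Cre-positive mice and 0.10 in Cre-negative mice. Ifit3, an interferon-induced inhibitor of viral translation, was the gene nearest to a call in both sorts after Ctsh among genes of at least 3 log2 CPM in each. It had 36.1 to 122.2 CPM, median 74.3, in APPPS1 microglia against 28.6, 39.6, 42.1 and 35.1 CPM, and 47.2 to 80.2 CPM, median 55.3, in APPPS1 astrocytes against 26.4, 40.1, 24.2 and 32.1 CPM. The astrocyte groups did not overlap and 1 APPPS1 microglia library lay within the amyloid-free range. The effects were 1.13 (adjusted p = 0.00573) in microglia and 0.99 (adjusted p = 0.198) in astrocytes, a difference of 0.14 ± 0.32 (adjusted p = 0.965). Cell cycle genes showed a like pattern at low astrocyte levels: 15 of 28 rose in microglia, 13 were higher in astrocytes at an unadjusted p under 0.05, 1 was called for the difference, and the medians were 1.88 in microglia and 1.17 in astrocytes. Their astrocyte median was 1.57 in Cre-positive mice and 0.28 in Cre-negative mice. Of 13 pan-reactive astrocyte genes, 13 had an astrocyte effect above 0 (median 0.95) and 3 a microglia effect above 0 (median -0.59). The astrocyte median was 1.22 in Cre-positive mice, with 11 of 13 above 0, and 0.31 in Cre-negative mice, with 8 of 13. Only Gfap of that list was called in either sort, and none was called for the difference.

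By the edgeR test no gene passed in each sort with opposite signs. With an unadjusted p under 0.05 in each sort and a called difference, 49 genes had opposite signs, 42 of them lower in microglia and higher in astrocytes and 7 the reverse, and 16 of the 49 were measured in both sorts. Genes of blood vessels were among them. Ly6c1, a surface protein of brain endothelium, had 2.78 to 11.9 CPM, median 4.74, in APPPS1 microglia against 12.5, 42.6, 6.14 and 9.35 CPM in amyloid-free mice 22, 26, 465 and 759, and 26.5 to 126.5 CPM, median 58.8, in APPPS1 astrocytes against 5.23, 8.71, 30.5 and 109.4 CPM. Mice 22 and 26 were the highest in microglia and the lowest in astrocytes (effects -1.36 and 1.62, difference -2.98 ± 0.63, adjusted p = 0.017; 0.277 with the block and 0.00918 with Cre terms added). Over 14 endothelial markers 5 were called for a lower effect in microglia, all 14 astrocyte estimates were above 0 (median 1.36) and 3 microglia estimates were (median -1.03). A lower effect in microglia was called for 0.731% of all genes tested. None of the 5 kept its call with the mouse as a fixed block or as a random effect, and 3 did with Cre terms added. In Cre-positive mice 11 of the 14 were called, with medians of -2.10 in microglia and 2.54 in astrocytes, and in Cre-negative mice none was, with medians of -0.16 in microglia and 0.07 in astrocytes. The markers summed to 148.6 to 250.7 CPM in APPPS1 microglia and 186.3 to 387.5 CPM in amyloid-free microglia, and to 370.6 to 1039 CPM in APPPS1 astrocytes and 242.5 to 815.4 CPM in amyloid-free astrocytes. Fn1, which codes for the matrix protein fibronectin and is also made by vessel cells, had 11.3 to 40.8 CPM, median 15.7, in APPPS1 microglia against 43.5, 155.9, 37.5 and 14.1 CPM, and 7.49 to 31.2 CPM, median 15.3, in APPPS1 astrocytes against 3.46, 3.91, 10.5 and 19.6 CPM (effects -1.36 and 1.42, difference -2.78 ± 0.57, adjusted p = 0.0137; 0.265 with the block). The part of vessel RNA in these opposite signs was not tested.

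The medians of the Cre states lay closer together for rising genes than for falling and opposed ones. The 134 rising genes measured in both sorts had a median difference of 1.57 in Cre-positive mice and 1.07 in Cre-negative mice, with the same sign as overall in 134 and 133 of them. For the 27 falling genes the medians were -2.61 in Cre-positive mice and -0.81 in Cre-negative mice. For the 49 opposed genes they were -5.19 and -0.69, and the astrocyte medians were 2.62 in Cre-positive mice and -0.08 in Cre-negative mice. Axl had a difference of 3.55 in Cre-positive mice and 3.41 in Cre-negative mice, and Chst2 3.55 and 3.23. Ly6c1 had -5.49 in Cre-positive mice and -0.48 in Cre-negative mice, and Hsp90aa1 -2.61 and 0.03. A direct test of Cre-positive minus Cre-negative called 15 of 21612 genes (0.0694%), none of the 134 rising or 27 falling genes and 1 of the 49 opposed, Smim5, a small membrane protein gene (-5.66 ± 0.99, adjusted p = 0.0306). Each Cre state has 2 amyloid-free mice, and in Cre-negative mice alone 16 genes were called for the difference, all but 1 of them among the 325, against 831 in Cre-positive mice.

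**Figure D5:**
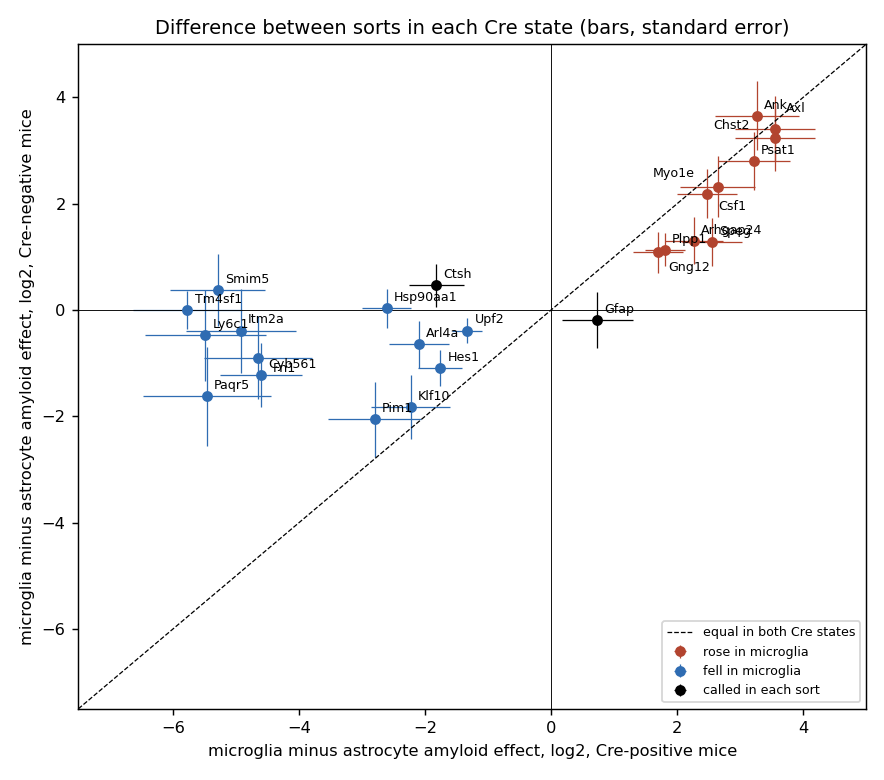
Difference between sorts (microglia minus astrocyte amyloid effect, log2) in Cre-positive mice (horizontal axis) and in Cre-negative mice (vertical axis) for named genes, with standard errors as bars. Genes that rose in microglia (red) lie near the line of equality, with Axl at 3.55 and 3.41, while most that fell (blue) lie above it, with Ly6c1 at -5.49 and -0.48.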

How the data were processed

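RNA of sorted microglia and astrocytes was measured in 28 libraries of 14 mice. The deposited table gives raw counts per gene, which the authors made with STAR and featureCounts on GRCm38 and GRCh38, per the submitters' processing notes, and strandedness and the treatment of reads that fit both genomes are not given in the sources used here. Rows of 40481 mouse genes were used, as gene counts without further correction. The counts of 26 libraries, without mouse 459, were fitted in 1 model with a term for each of 8 groups of sort, amyloid and Cre (edgeR 4.0.16 in R 4.3.3, TMM scaling, filterByExpr, quasi-likelihood F test, Benjamini-Hochberg adjustment over all 21612 genes). Standard errors are the absolute log2 value over the square root of F. CPM are TMM-scaled, and log2 CPM have a prior count of 0.5. The procedure was tested on simulated data. The simulation drew each library independently, with no effect of single mice and no varying share of RNA from the other sort, so it cannot speak to these. DESeq2 1.42.0 and limma 3.58.1 served the alternatives. Replicates are separate mice.

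The microglia and astrocyte libraries of a mouse are paired because they come from the same animal. The correlation of their deviations from the group means was -0.064 to 0.342 (median 0.028) over 13 mice and above 0.1 in 4, and the fits with the mouse as a block were kept as alternatives, 1 of them, with Cre terms, added after seeing the data.

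The comparison, the members and the 37 gene lists were chosen with earlier results of these data known. Named genes have a mean of at least 3 log2 CPM in the sort or sorts concerned and, leaving out predicted genes, Riken clones and pseudogenes, are those of lowest p in each class, up to 6 measured in both sorts and 4 in microglia alone per direction, with genes that complete 3 where a class has fewer. Up to 4 members of lowest p of each list described were added. Genes called in astrocytes, or opposite at unadjusted p, were named after their values were seen, as were Spp1, Fabp5, Cst7, Ctsl and Ctsa. The test of the difference between Cre states was added after seeing the data too.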

Additional observations from a re-analysis of the deposited data

Results flagged for a closer look

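The amyloid effect differed between the sorts by the test of the difference itself (edgeR, adjusted p under 0.05) for 34 of the named genes. It was higher in microglia, in log2, for Axl (3.48), Chst2 (3.39), Psat1 (3.01), Ank (3.46), Csf1 (2.32), Plpp1 (1.47), Tnfsf8 (5.73), Cox6a2 (4.17), Myo1e (2.48), Speg (1.91), Arhgap24 (1.78) and Gng12 (1.38). It was lower in microglia, in log2, for Hes1 (-1.43), Upf2 (-0.86), Hsp90aa1 (-1.29), Fn1 (-2.78), Pim1 (-2.43), Klf10 (-2.03), Cebpb (-2.75), Itm2a (-2.66), Arl4a (-1.37), Cyb561 (-2.92), Cfap52 (-5.98), Ppp1r36 (-6.46), Paqr5 (-3.54), Tm4sf1 (-2.88), Smim5 (-2.46), Ccdc113 (-6.88), Ly6c1 (-2.98), Pmaip1 (-6.02), Mcub (-6.54), Rab11fip1 (-3.96), AI467606 (-2.26) and Pik3r6 (-5.14). Tnfsf8 and Cox6a2 were at or near 0 in astrocytes, Cfap52, Ppp1r36 and Ccdc113 near 0 in microglia and the last 5 at or near 0 in some astrocyte libraries, so the sizes of these fitted values depend on the model's prior count. Cebpb was low in astrocytes and measured in microglia alone, so its size is not read either.

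A sample stood far from the others of its group, by the gap to its nearest neighbour over the group's range in log2 CPM, in 15 of 200 groups of 4 or 5 libraries, where chance flags about 1 in 20. In astrocytes of Cre-negative APPPS1 mice these were Csf1 at 78.4 CPM in mouse 774, Gfap at 110.4 CPM in mouse 469, AI467606 at 1.01 CPM in mouse 779, and St3gal6 at 18.1, Fn1 at 31.2 and Smim5 at 5.17 CPM in mouse 439. In astrocytes of Cre-positive APPPS1 mice they were Fn1 at 7.49, Myo1e at 13 and Pmaip1 at 0.852 CPM in mouse 460, and Speg at 11 CPM in mouse 458. In microglia they were Ctsh at 795.1 CPM in mouse 469 and Pmaip1 at 108.3 and Mcub at 23.5 CPM in mouse 439, all Cre-negative, and Eogt at 24.7 and Myo1e at 77.9 CPM in mouse 443, which is Cre-positive.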

How the results depend on the processing

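Numbers of called genes depended on the mice and the model. The order of the counts below is the difference between sorts, the effect in microglia, the effect in astrocytes, genes changed more in microglia, genes changed more in astrocytes, and genes called in both sorts in the same direction, against 325, 2043, 13, 297, 5 and 3. Cre-positive mice alone gave 831 for the difference, 90 in astrocytes, 607 more in microglia, 45 more in astrocytes, 5 in both and 8 in opposite directions. Cre-negative mice alone gave 16, 71, 0, 16, 0 and 0. The DESeq2 Wald test gave 1187, 3074, 240, 926, 119 and 21, with 11 opposite. Voom gave 43 in astrocytes, 11 more in astrocytes and 2 opposite, and the stricter filter on low counts 21 in astrocytes and 10 more in astrocytes. With the replicate block the difference stood at 41, at 80 with Cre terms, and at 176 with the mouse as a random effect, which gave 8 in astrocytes, 167 more in microglia, 3 more in astrocytes and 0 in both. Each sort fitted alone gave 0 in astrocytes and so 0 in both. With the other sort's identity genes as a covariate the counts were 4, 28, 0, 3, 0 and 0, and with mouse 459 kept they were 30, 266, 0, 28, 0 and 0. Leaving out 1 mouse at a time gave 52 to 577 for the difference, 625 to 2491 in microglia, 0 to 19 in astrocytes, 49 to 528 more in microglia, 0 to 9 more in astrocytes and 0 to 5 in both. The causes were not tested.

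DESeq2 size factors and no filter gave 336 and 299 genes for the difference. Over the 50 named genes no direction turned under those, under voom, the DESeq2 test, Cre-positive mice alone or any replicate block, nor under the stricter filter over the 43 that passed it. The block ended the call of 25 named genes, of 14 with Cre terms and of 13 as a random effect, and changed no other call of a named gene. Single amyloid-free mice mattered as much. Leaving out mouse 26 ended the call of 24 of the 50 named genes, mouse 759 of 16 and mouse 465 of 13, but mouse 22 of 4. With no change of sign, 29 lost their call in Cre-negative mice alone and 33 with the covariate. Genes without a call for the difference turned sign in some settings, as did Hsp90aa1 (0.03) and Smim5 (0.37) in Cre-negative mice. There Ctsh stood at 0.46, St3gal6 at 0.22, Slc38a1 at 0.56, Ifit3 at -0.02, Akip1 at 0.33, Dusp6 at -0.05, Fam49b at 0.06, B4galt6 at 0.32, Gfap at -0.19 and Lockd at 1.25. With the covariate Ifit3 stood at -0.47, Fam49b at 0.29 and B4galt6 at 0.07, and with mouse 459 kept Ifit3 at -0.07 and Dusp6 at -0.72. Without 1 mouse Akip1 ran from -0.30 to 0.01, Dusp6 from -0.03 to 0.32, Fam49b from -0.21 to 0.17, Gfap from -0.12 to 0.97 and Ifit3 from -0.03 to 0.30.

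With 4 amyloid-free mice, 2 in each Cre state, the smaller changes could not be separated from the spread, and a gene at or near 0 in a sort cannot show a response there.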

Other observations

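The 13 mitochondrially encoded genes leaned apart between the sorts without a call for the difference: 3 fell in microglia, whose median effect was -0.21, and 12 of 13 astrocyte estimates were above 0 with a median of 0.24. The difference was below 0 for all 13, with medians of -1.26 in Cre-positive mice and 0.19 in Cre-negative mice. Immediate early and dissociation genes, which rise when tissue is handled warm, had 6 of 24 members that fell in microglia, none called in astrocytes and none called for the difference, with medians of -0.48 in microglia and 0.16 in astrocytes. Their median difference was -1.52 in Cre-positive mice and 0.05 in Cre-negative mice. Among all genes tested, 4.09% fell in microglia, 0.0602% rose in astrocytes and 1.5% were called for the difference.

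Oligodendrocyte markers turned sign between the Cre states, although none of the 12 was called in either sort. Their median difference was -1.41 in Cre-positive mice and 1.75 in Cre-negative mice, with astrocyte medians of 0.72 in Cre-positive and -0.82 in Cre-negative mice. Antigen presentation genes had 2 of 19 that rose in microglia and none in astrocytes, with 16 astrocyte estimates above 0 and medians of 0.20 in microglia and 0.55 in astrocytes. Their medians in microglia and astrocytes were 0.12 and 0.55 in Cre-positive mice, and 0.36 and 0.30 in Cre-negative mice. Of 22 extracellular matrix genes, 3 rose and 7 fell in microglia and 2 were called for a lower effect in microglia. Among all genes tested, 5.36% rose and 4.09% fell in microglia, 0.0602% rose in astrocytes and 0.731% were called for a lower effect in microglia.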
